A study of Mus musculus with 5 samples.

Results

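The genes described here encode filaggrin and its relatives, loricrin, involucrin and the enzymes that cross-link or process them in the outermost layers of the epidermis. They were chosen as every gene probe whose platform symbol was Flg, Flg2, Hrnr, Lor, Ivl, Casp14, Tgm1 or Tgm3. Of these 8 genes 7 had a probe, 1 each, among 18467 named genes. The platform annotation lists no probe under Casp14, the protease that processes filaggrin, and its level was not analysed here.

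Levels came from 5 one-colour CodeLink oligonucleotide arrays of back skin of hairless albino mice, 1 array per group. Xpa mutant skin was taken at 3 h and at 24 h after UVB, and wild-type (WT) skin without UVB and at the same times after it, with a UVB dose of 1 kJ per square metre. Xpa encodes a protein that verifies DNA damage in nucleotide excision repair, and the labels give neither the kind of mutation nor the number of mice behind an array. Mutant skin without UVB was not analysed here, so a difference between mutant and WT after UVB cannot be told apart from one that was there before it. With 1 array per group there is no test and no replicate check, and each difference below compares 2 arrays.

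Keratinocytes that reach the granular layer fill with filaggrin and loricrin and replace their plasma membrane by a cornified envelope. Involucrin and periplakin line the membrane first, loricrin makes up most of the mature envelope, and transglutaminases join these proteins by bonds between glutamine and lysine residues. Filaggrin is made as a long chain of repeats, bundles keratin filaments once it is cut free, and is later broken down to amino acids that hold water. Most of these genes lie in the epidermal differentiation complex on mouse chromosome 3.

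On each array 23.5% to 25.1% of gene probes lay above background, meaning that the scanner software had not given them its low-signal flag. Xpa itself had a log2 level of 6.64 (3 h) and 6.42 (24 h) in the mutant, both below background, against 7.49, 7.13 and 7.55 on the WT arrays without UVB, at 3 h and at 24 h, of which the second was below background. The position of that probe relative to the mutation is not known here, so this is a weak check of the labels. The keratin genes that define basal cells (Krt5, Krt14) and suprabasal cells (Krt1, Krt10) were above background on all 5 arrays. The SD between replicate spots of spiked control probes within an array had a median of 0.13 on the log2 scale, which measures technical noise only.

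The structural genes Flg, Flg2, Lor and Ivl had their lowest level on the Xpa mutant array at 24 h, and their highest on the unirradiated WT array. The cross-linking enzyme gene Tgm1 stayed within a range of 0.62 on the log2 scale over the 5 arrays. Among 4644 genes above background on all arrays, 1285 had a wider range than Tgm1, so it was not among the steadiest. Of the 7 genes 3, Flg, Lor and Tgm1, were above background on all arrays, Flg2 and Ivl on some, and Hrnr and Tgm3 on none. A lower level in whole skin can come from fewer cells of a type or from less RNA per cell, and these cannot be told apart.

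**Figure D1:**
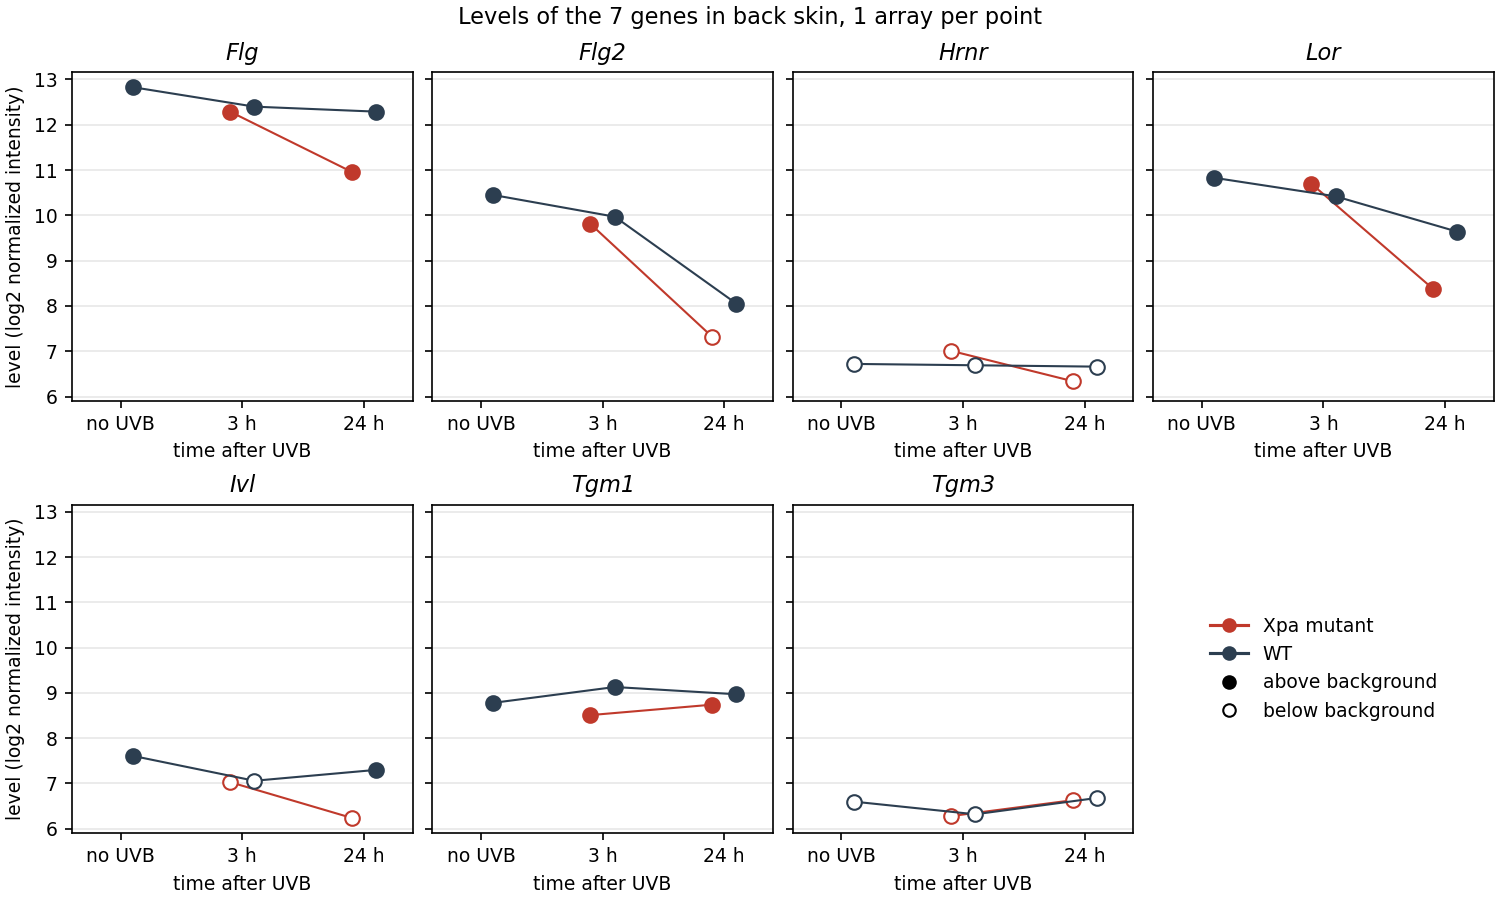
Level of each of the 7 genes (vertical axis, log2 normalized intensity) without UVB, at 3 h and at 24 h (horizontal axis), with Xpa mutant arrays in red and WT arrays in dark blue. Each point is 1 array, filled where the probe was above background and open where it was below. Flg, Flg2, Lor and Ivl are lowest on the mutant array at 24 h, while Tgm1 keeps within 0.62 on the log2 scale.

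Flg, which encodes filaggrin, was far above background on every array. Its log2 level was 12.83 on the WT array without UVB, at 3 h 12.29 in the Xpa mutant and 12.40 in WT, and at 24 h 10.96 in the Xpa mutant and 12.29 in WT. The 3 irradiated arrays other than the mutant at 24 h lay within 0.11 of each other, and the mutant at 24 h stood below them. In background-subtracted scanner intensity, before any scaling, the spot gave 1797 units in the Xpa mutant at 24 h, against 4683 in WT, so the gap is present in the raw scan. Even at its lowest the probe was brighter than 99.4% of gene probes on that array.

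Flg2, which encodes a filaggrin relative with similar repeats, was low at 24 h in both genotypes. Its level was 10.45 without UVB, at 3 h 9.81 in the Xpa mutant and 9.97 in WT, and at 24 h 7.32 in the Xpa mutant and 8.05 in WT. Both arrays at 24 h were low, while at 3 h the difference from the unirradiated array was -0.64 in the Xpa mutant and -0.48 in WT. The mutant spot at 24 h had 2.06 times its local background and carried the low-signal flag, against 3.36 times on the WT array, so its true level can only be bounded from above.

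Lor, which encodes the glycine-rich loricrin, was low at 24 h in both genotypes and lowest in the mutant. Its level was 10.83 without UVB, at 3 h 10.70 in the Xpa mutant and 10.42 in WT, and at 24 h 8.38 in the Xpa mutant and 9.64 in WT. Among 4644 genes above background on all 5 arrays, 22 had a wider range than the 2.45 of Lor, and 60 a wider range than the 1.86 of Flg.

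Ivl, which encodes the early envelope protein involucrin, gave a dim probe. Its level was 7.61 without UVB, at 3 h 7.03 in the Xpa mutant and 7.06 in WT, and at 24 h 6.24 in the Xpa mutant and 7.30 in WT. Above background were WT skin without UVB and WT skin at 24 h. The mutant spot at 24 h, with 24 units over its background against 107 on the WT array, was dimmer than those of all other arrays.

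Tgm1, which encodes the membrane-bound transglutaminase of keratinocytes, was above background throughout. Its level was 8.78 without UVB, at 3 h 8.51 in the Xpa mutant and 9.13 in WT, and at 24 h 8.74 in the Xpa mutant and 8.97 in WT. The highest array was the WT at 3 h and the lowest the mutant at 3 h, an order unlike that of the structural genes.

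Hrnr, which encodes the S100-fused protein hornerin, and Tgm3, which encodes a soluble transglutaminase of epidermis and hair follicle, were below background on every array. Hrnr lay between 6.34 and 7.01 and Tgm3 between 6.28 and 6.68. No fold is given for them, and these values show neither a change nor its absence.

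The bases just before the start sites of the 4 structural genes that were lowest on the mutant array at 24 h are shown because they share a short motif. They are from RefSeq on GRCm38.p6, 200 bases each, 5′ to 3′ on the strand of the gene, and capitals mark the letters TGANTCA, which AP-1 transcription factors are known to bind. Flg is at chr3:93273346-93273545 (+), Flg2 at chr3:93197073-93197272 (+), Lor at chr3:92083143-92083342 (-) and Ivl at chr3:92573736-92573935 (-).
Flg: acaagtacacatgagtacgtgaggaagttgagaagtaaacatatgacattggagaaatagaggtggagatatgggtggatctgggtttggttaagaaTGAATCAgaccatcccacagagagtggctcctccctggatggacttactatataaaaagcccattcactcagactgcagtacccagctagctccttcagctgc
Flg2: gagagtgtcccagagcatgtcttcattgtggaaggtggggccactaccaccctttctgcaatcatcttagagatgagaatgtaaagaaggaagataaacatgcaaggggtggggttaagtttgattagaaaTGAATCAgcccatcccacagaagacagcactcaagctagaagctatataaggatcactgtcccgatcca
Lor: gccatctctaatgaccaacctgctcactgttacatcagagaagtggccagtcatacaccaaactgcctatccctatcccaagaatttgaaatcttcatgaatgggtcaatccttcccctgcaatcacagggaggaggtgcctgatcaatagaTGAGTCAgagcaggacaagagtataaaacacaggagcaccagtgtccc
Ivl: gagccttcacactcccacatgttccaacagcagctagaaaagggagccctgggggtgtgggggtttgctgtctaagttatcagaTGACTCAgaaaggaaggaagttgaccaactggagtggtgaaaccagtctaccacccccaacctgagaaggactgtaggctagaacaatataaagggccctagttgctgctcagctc

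The motif was searched on both strands in windows of 250 bases before to 50 bases after a start site. Counted from the start site, it begins at position -103 in Flg, -69 in Flg2, -48 in Lor and -116 in Ivl, and its letters were not in the windows of Hrnr, Tgm1, Tgm3 or Casp14. It was present in 7.8% of all 32851 windows. Flg and Flg2 carry the same TGAATCA form, and a run of 12 letters that both windows share, ccatcccacaga, follows it, from position -94 in Flg and -60 in Flg2. The windows of Flg2 and Hrnr also share a run of 12 letters, though Hrnr lacks the motif. How often unrelated windows share such runs was not tested. The letters TATAAA lie before the start site of Flg, Hrnr, Lor, Ivl and Tgm3 and in 13.6% of all windows, and AACCNGTT, a motif of grainyhead-like factors, was in none of the members' windows and in 2.1% of all. A match describes the sequence and does not show that a factor binds there.

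In WT skin 24 h after UVB, Flg2 and Lor were at least 2-fold lower than without UVB. Flg2 was 5.28-fold lower and Lor 2.28-fold, on log2 differences of -2.40 and -1.19, while Flg, Ivl and Tgm1 had differences of -0.54, -0.31 and 0.19. Among 7268 genes compared, those above background on at least 1 of the arrays, 3 had a lower difference than Flg2 and 88 a lower one than Lor. In this comparison 2.22% of all genes were at least 2-fold lower and 2.45% higher, against 2 and 0 of the 5 genes here that could be compared. Such counts and shares, here and for the gene lists, take a spot below background at its own level, and where a counted gene has only a bound under 2-fold this is said. With the arrays scaled by their spiked controls, which moved the median of all genes by 0.18, Lor had a difference of -0.95 and no longer passed 2-fold.

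At 3 h the same genes had moved little in WT skin. Against the unirradiated array, the WT array at 3 h had differences of -0.43 for Flg, -0.48 for Flg2, -0.41 for Lor and 0.35 for Tgm1, and Ivl was at least 1.46-fold lower, so that none of the 5 was 2-fold lower or higher. Over all genes compared 1.26% were at least 2-fold lower and 2.27% higher. The 4 structural genes lay below 0, where 54.2% of all genes did. Both WT comparisons share the unirradiated array, and a high value on it would lower a gene in both.

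Between 3 h and 24 h in WT skin the level of Flg2 was 3.79-fold lower at 24 h, and 5 of 7120 genes had a lower difference. Lor was 1.72-fold lower, Flg 1.08-fold and Tgm1 1.11-fold, and Ivl was at least 1.18-fold higher. Thus 1 of the 5 genes passed 2-fold, where 2.22% of all genes were at least 2-fold lower and 2.09% higher. The Tgm1 difference of -0.16 turned to 0.14 with the arrays scaled by their spiked controls, under which the median of all genes was 0.31, against 0.03 as reported.

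In Xpa mutant skin 3 of the 4 comparable genes were at least 2-fold lower at 24 h than at 3 h. Lor was 5.01-fold lower and Flg 2.51-fold, and Flg2 was at least 5.61-fold lower. Of 7090 genes compared, 21 had a lower log2 difference than the -2.32 of Lor and 122 a lower one than the -1.32 of Flg. Tgm1 was 1.18-fold higher. Over all genes 3.77% were at least 2-fold lower and 2.44% higher. Ivl was below background on both mutant arrays and has no fold.

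**Figure D2:**
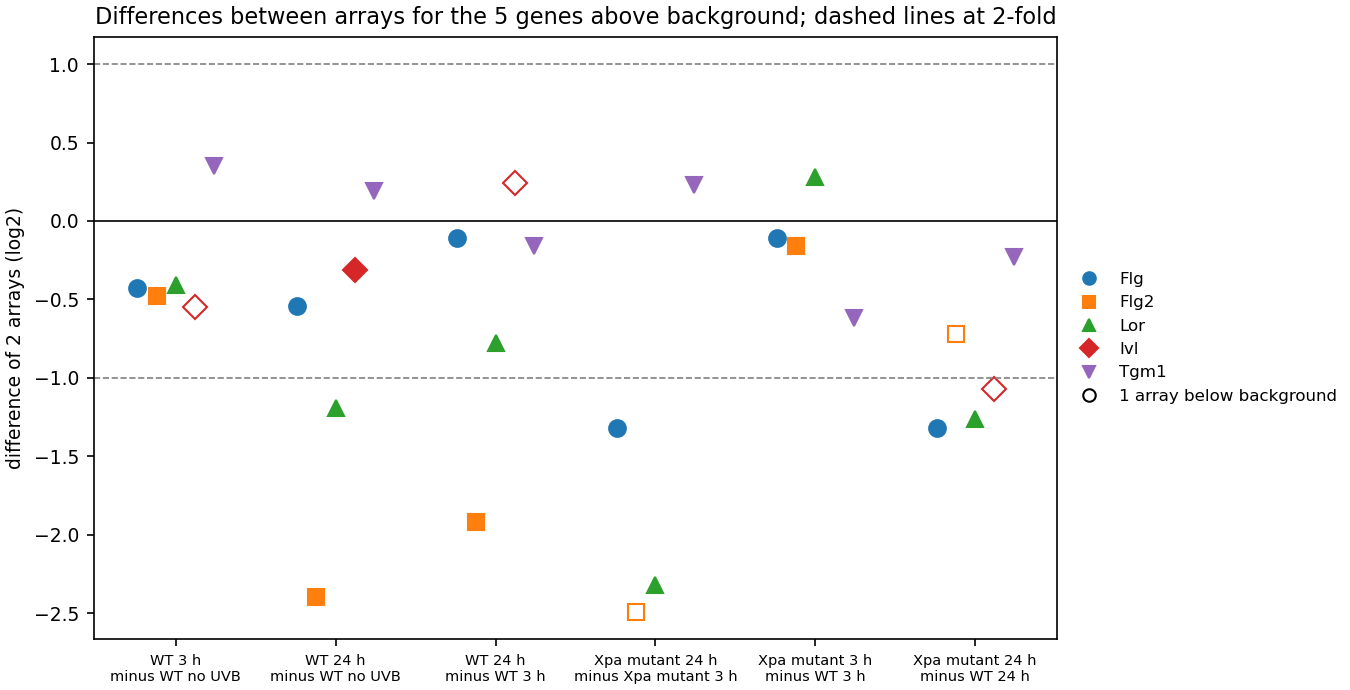
Difference between 2 arrays (vertical axis, log2) for the 5 genes above background, in 6 comparisons (horizontal axis). Dashed lines mark 2-fold, and open symbols have 1 array below background. In WT skin Flg2 and Lor pass the lower line at 24 h against no UVB, in mutant skin Flg, Flg2 and Lor pass it at 24 h against 3 h, and Tgm1 stays between the lines in all 6.

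At 24 h, Flg and Lor were lower on the Xpa mutant array than on the WT array by 2.51-fold and 2.39-fold, on log2 differences of -1.32 and -1.26. Flg2 was at least 1.65-fold lower and Ivl at least 1.20-fold, both with the mutant spot below background, and Tgm1 was 1.17-fold lower. The Flg2 bound takes the mutant spot at its own level, and the Ivl bound takes the lowest level above background on that array. Without background correction the Flg2 difference was -0.53, a smaller gap than this bound. Thus 2 of the 5 genes, Flg and Lor, were shown to be at least 2-fold lower and 0 higher. With spots below background taken at their own level, as in the shares of all genes, the count of lower genes was 3 with Ivl (-1.07), where 2.66% of 7104 genes were lower and 1.60% higher. The median of the 5 differences taken so was that of Ivl itself, against 0.00 over all genes compared. Of all genes compared, 68 had a lower difference than Flg and 86 a lower one than Lor.

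The 24 h gap of Flg and Lor kept its sign and its 2-fold size under 5 other ways of processing the same scans, with Flg between -1.93 and -1.31 and Lor between -1.89 and -1.18. The largest of these gaps came from scaling by spiked controls, which also moved the median of all genes to -0.62. Ivl, with its mutant spot below background, had a difference of -0.76, short of 2-fold, without background correction, and -2.13 in the authors' deposited table, so its size depends on how background is taken off.

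**Figure D3:**
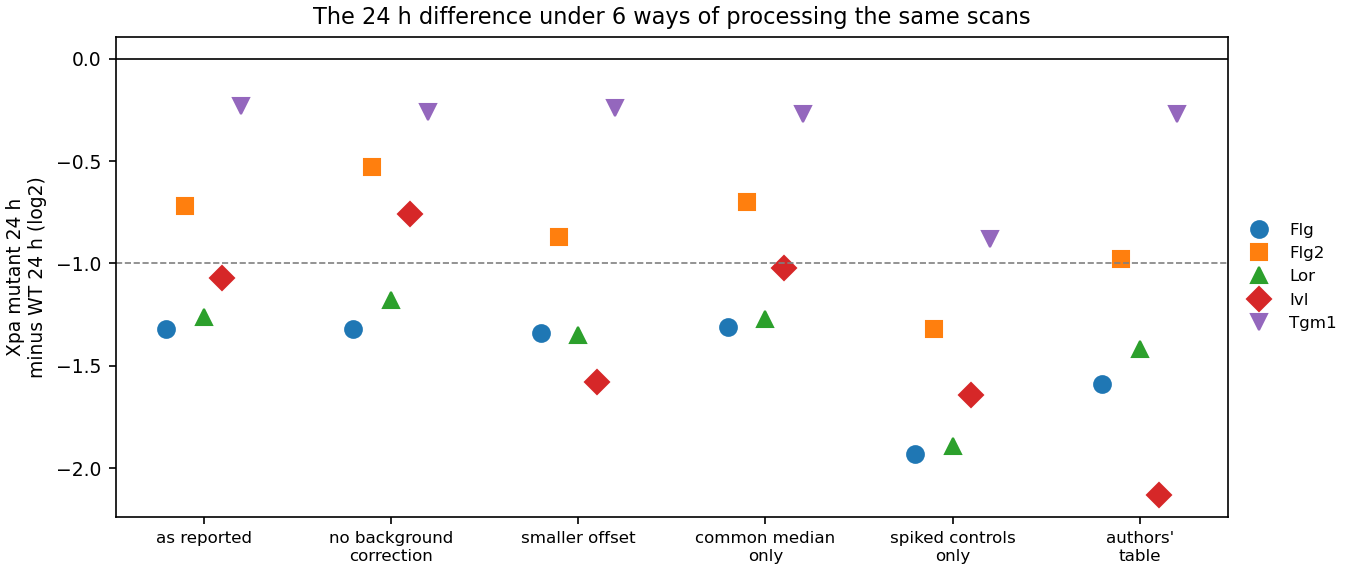
Xpa mutant minus WT difference at 24 h (vertical axis, log2) for 5 genes under 6 ways of processing (horizontal axis); the dashed line marks 2-fold lower. Flg and Lor lie below that line in all 6, Tgm1 lies above it in all 6, and the dim probes Flg2 and Ivl lie on either side of it.

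At 3 h the mutant and WT arrays were close for Flg, Flg2 and Lor, and less so for Tgm1. Differences of mutant minus WT were -0.11 for Flg, -0.16 for Flg2 and 0.28 for Lor, and none of the 4 comparable genes passed 2-fold, where 0.991% of all genes were at least 2-fold lower and 1.12% higher. Tgm1 had the lowest difference, -0.62 (1.53-fold lower in the mutant), and 302 of 6863 genes had a lower one. Set against the WT change from 3 h to 24 h, the mutant change was lower by 1.54 for Lor and by 1.22 for Flg, and higher by 0.39 for Tgm1. Hair follicle markers also differed between these arrays, with 6 of 13 at least 2-fold higher in the mutant, 0 lower and sums of 7859 in the mutant and 3297 in WT, and their part in the Tgm1 difference was not tested. Of 4782 genes above background on all 4 irradiated arrays, 31 had a lower value of that difference of changes than Lor and 73 a lower one than Flg.

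Against unirradiated WT skin the Xpa mutant array at 24 h had the lowest levels of the 4 structural genes. Flg2 was at least 8.73-fold, Lor 5.47-fold, Flg 3.64-fold and Ivl at least 1.48-fold lower, and Tgm1 had a log2 difference of -0.03. Thus 3 of 5 genes, Flg, Flg2 and Lor, were shown to be at least 2-fold lower and 0 higher. The count was 4 with Ivl when its spot was taken at its own level, where by that rule 3.88% of all genes were lower and 3.28% higher. Genotype and UVB both differ between these 2 arrays, and their parts cannot be told apart. At 3 h the mutant array differed from unirradiated WT by -0.54 for Flg, -0.64 for Flg2, -0.13 for Lor and -0.27 for Tgm1, and Ivl was at least 1.46-fold lower, with 0 of 5 past 2-fold, where 1.32% of all genes were lower and 1.76% higher.

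Other envelope proteins gave a mixed picture. Of 22 listed genes 18 had a probe, and at 24 h 16 could be compared between mutant and WT. Of these, 0 were at least 2-fold higher and 2 lower, where 1.60% and 2.66% of all genes were. The median of the 16 was -0.43. The 2 lower genes of the list were Kprp, a proline-rich protein of keratinocytes, 3.36-fold, and Cnfn, which encodes cornifelin, 2.19-fold. In WT skin at 24 h against no UVB, 2 of 15 were higher and 1 lower, where 2.45% and 2.22% of all genes were. The median of the 15 was -0.20. Rptn, an S100-fused relative of filaggrin, was 2.74-fold and Cnfn 2.12-fold higher, and the plakin gene Ppl was 2.12-fold lower. A relative of filaggrin was thus higher on the same array on which Flg2 was 5.28-fold lower.

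Enzymes that cut or break down filaggrin, with their inhibitors, formed the next list, 22 of 26 genes with a probe. Between mutant and WT at 24 h, 4 of 16 had a log2 difference past 2-fold in the lower direction and 0 in the higher. Over all genes these shares were 2.66% and 1.60%. The median of the 16 was -0.29, and 3 of the 4 were shown to be at least 2-fold lower. They were Asprv1, the protease that cuts the linkers of mouse profilaggrin, 2.86-fold, the kallikrein Klk7, 2.21-fold, Klk11, for which the bound is at least 1.76-fold, and Blmh, which degrades filaggrin to amino acids, 2.01-fold. In WT at 24 h against no UVB 2 of 18 were higher and 0 lower, where 2.45% and 2.22% of all genes were. Klk10 was higher by 3.50-fold and the serpin Serpinb6c by 2.03-fold. From 3 h to 24 h in the mutant, 2 of 17 were lower at 24 h and 0 higher, where 3.77% and 2.44% of all genes were. Asprv1 was lower by 3.81-fold and Hal, which turns histidine into the UV absorber urocanic acid, by 2.78-fold.

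Genes of the barrier lipids, which are attached to the envelope, had the lowest median of the 4 pathway lists in the mutant at 24 h. Of 28 listed genes 25 had a probe, and 21 were compared with WT. Of these, 6 were at least 2-fold lower and 0 higher, where 2.66% and 1.60% of all genes were. The median of the 21 was -0.70. Elovl4, which lengthens very long fatty acids, and Cyp4f39, which hydroxylates them, were each 2.44-fold lower, the cholesterol sulfotransferase gene Sult2b1 2.31-fold, Elovl7 2.18-fold and the fatty acid transporter gene Slc27a4 2.10-fold. In WT at 24 h against no UVB 1 of 21 was higher and 3 lower, where 2.45% and 2.22% of all genes were. The median was -0.03. The epidermal lipoxygenase gene Alox12e was at least 4.09-fold, Lipm 2.11-fold and Lipk 2.10-fold lower, and Elovl7 was 2.09-fold higher.

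Transcription regulators of late differentiation were tallied in the same way. Of 32 listed genes 31 had a probe, and at 24 h 1 of 24 was lower in the mutant than in WT, Klf3 by 2.11-fold, and 0 were higher, with a median of -0.34, where 2.66% and 1.60% of all genes were. In WT at 3 h against no UVB 2 of 25 had a log2 difference past 2-fold in the higher direction and 1 in the lower, where 2.27% and 1.26% of all genes did, and only Junb was shown to pass 2-fold. The AP-1 subunit genes Junb and Fosl1 were higher by at least 5.05-fold for Junb and 1.44-fold for Fosl1, while Grhl3, a grainyhead-like factor that drives Tgm1 and barrier formation in mouse, was at least 1.90-fold lower. Junb stayed at least 3.03-fold higher in WT at 24 h and had a level of 8.61 on both the mutant and the WT array then.

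**Figure D4:**
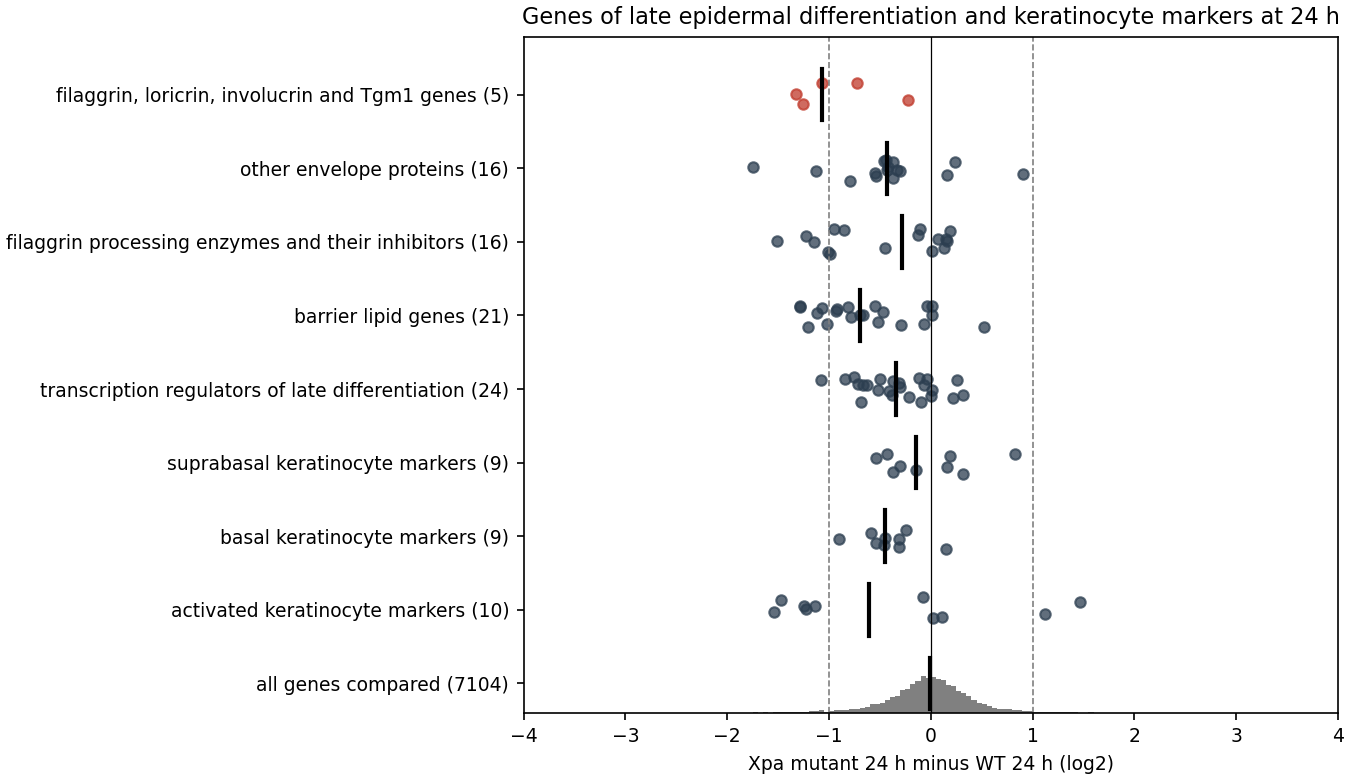
Difference between the Xpa mutant and WT arrays at 24 h (horizontal axis, log2) for the genes of each list (rows; number compared in brackets), with all genes compared as a histogram in the lowest row. Each point is 1 gene, with spots below background taken at their own level, black bars are medians and dashed lines mark 2-fold. Some genes stand in more than 1 list. The median of the top row, -1.07, is that of Ivl, whose spot was below background on the mutant array. The other lists had medians from -0.70 (barrier lipid genes) to -0.14 (suprabasal keratinocyte markers).

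Markers of the keratinocyte layers were summed on each array. The suprabasal markers Dsc1, Dsg1a, Dsg1b, Calml3 and Lypd3 also stand in the list of other envelope proteins. Trp63 stands in both the basal and the regulator list, and Padi3 in both the hair follicle and the filaggrin processing list. Suprabasal markers, 9 of 10 with a probe and 9 above background on at least 1 array, summed to 12224 intensity units on the Xpa mutant array and 12720 on the WT array at 24 h, with 0 of 9 past 2-fold between them. The WT sums were 31712 without UVB, 25217 at 3 h and 12720 at 24 h, and the mutant sum at 3 h was 28233. Krt1 and Krt10, keratins of the spinous layer, were 2.81-fold and 2.69-fold lower on the WT array at 24 h than without UVB, and Krt78 was 6.50-fold lower. The suprabasal sum was thus lower in WT skin at 24 h than without UVB, as Flg2 and Lor were. The sum weights bright genes such as Krt1 and Krt10, at 13.29 and 14.04 without UVB. By gene, 3 of 8 were at least 2-fold lower and 0 higher, with a median of -0.23. Over all genes 2.22% were lower and 2.45% higher. At 24 h the sums of mutant and WT were close, while Flg and Lor differed. The part of these keratinocyte layers in the results above was not tested.

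Markers of other cell types were summed on the arrays at 24 h as well. These sums weight bright genes and include spots below background. Basal keratinocyte markers (9 of 10 with a probe) summed to 13769 on the mutant array and 21598 on the WT array. Of these 0 of 9 were past 2-fold, with a median of -0.45. Activated keratinocyte markers (10 of 10) summed to 21284 and 44406 in the same order but went both ways. Of these 10, 5 were at least 2-fold lower in the mutant and 2 higher, where 2.66% and 1.60% of all genes were. The higher genes were S100a8, 2.76-fold, and S100a9, 2.18-fold, and the median of the 10 was -0.61. Sebaceous markers (9 of 10, with Mc5r, Fads2 and Mogat1 below background on all arrays) summed to 1359 in the mutant and 2931 in WT, while fibroblast markers (10 of 10) summed to 26940 and 13204. By gene, 3 of 5 sebaceous markers compared were at least 2-fold lower in the mutant and 0 higher. Of 10 fibroblast markers 3 were higher and 0 lower, where 1.60% and 2.66% of all genes were. Hair follicle markers apart from Tgm3 (14 of 19, with Lhx2 below background on all arrays) summed to 3018 in the mutant and 1757 in WT, skeletal muscle markers (11 of 11) to 43124 and 39768, adipocyte markers (9 of 10) to 12845 and 10380, and macrophage markers (7 of 9) to 3191 and 2910. Of the 13 hair follicle markers summed, 6 were above background in the mutant and 3 in WT. Of 6 compared, 4 had a log2 difference past 2-fold in the higher direction and 0 in the lower, and 2 were shown to pass 2-fold. By gene 0 of 11 muscle and 0 of 8 adipocyte markers passed 2-fold either way, and 1 of 6 macrophage markers was higher and 0 lower. Over all genes 1.60% were higher and 2.66% lower. Of 8 neutrophil markers with a probe only Retnlg was above background on any array, and Mpo, Elane, Csf3r, Cxcr2, Ngp, Camp and Ltf were not. Between WT at 24 h and without UVB, fibroblast sums were 13204 and 30752, muscle sums 39768 and 70720, and activated keratinocyte sums 44406 and 4862. The part of any of these cell types in the levels of Flg, Flg2, Lor and Ivl was not tested.

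The genes whose course over the 5 arrays was most like that of Flg or Lor were found by the distance between log2 levels, each centred on its own mean, among 4641 other genes above background on all arrays. Nearest to Flg was Fa2h, which hydroxylates fatty acids of sphingolipids, at a distance of 0.12, then Il1f5, which encodes a receptor antagonist of the interleukin 1 family, at 0.28, and Tmem45b at 0.28. Fa2h had levels of 9.33 without UVB, at 3 h 8.91 in the mutant and 9.05 in WT, and at 24 h 7.58 in the mutant and 8.93 in WT. Nearest to Lor were Prrxl1 at 0.15, the keratin gene Krt23 at 0.35 and Them5 at 0.42. Flg and Lor lay 0.90 from each other, farther than any of these, and Tgm1 lay 1.40 from Flg and 2.11 from Lor. These distances rest on 5 arrays that all genes share and describe levels only.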

How the data were processed

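Per the file headers, the authors quantified each array with CodeLink Expression Analysis 5.0.0.31312. The deposited scanner tables give the mean intensity of a spot, its local background median (92 to 94 units per array) and a quality flag. The authors' deposited normalized table holds intensity that ranks spots as spot mean minus background does (Spearman 1.00 on each array), and its 5 sorted columns lie within 0.01 of each other at 34435 of 36227 ranks (widest gap 0.910), as quantile normalization gives, with a median of 46.26. It was used only as an alternative, and the sources used here do not name the software behind it.

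The normexp method of limma 3.58.1 (R 4.3.3; saddle-point, offset 50, all unmasked spots) removed background. Of 34967 gene probes, 126 were left out as masked and 98 for an irregular or P flag on at least 1 array; 34743 entered quantile normalization and the log2 step. The brightest probe stood for a gene. Probes were named by the platform annotation (21471) or a RefSeq accession (533), 678 had several symbols and 12061 stayed unnamed. A gene was compared if above background on at least 1 of the 2 arrays, and counted from a 2-fold difference. A fold with its dim side below background is a bound: that side takes the lowest level above background on its array, or its own level if higher. Such a bound holds for the reported processing only. For Flg2 in the mutant, the log2 difference from 3 h to 24 h was -2.49 as reported and -2.13 without background correction. The calls between mutant and WT at 24 h were tested on simulated data. The planted changes were all larger than 2-fold, on probes above background on every array, and the noise was of the size between control spots. The simulation therefore does not show how calls near 2-fold or on dim spots behave or how skin samples vary. Members, gene lists, promoter motifs and comparisons were chosen with earlier results of these data known. All members were named, and of each list up to 5 genes past 2-fold per comparison. Alternatives were 9 other settings. The number of arrays limits the precision. Tables and plots used Python 3.11.15, numpy 2.4.6, pandas 2.3.3 and matplotlib 3.10.9.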

Additional observations from a re-analysis of the deposited data

Results flagged for a closer look

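Lor had opposite genotype differences at the 2 times. The mutant minus WT difference was 0.28 at 3 h and -1.26 at 24 h, with the probe above background on all 4 arrays. The 3 h difference is small, and 1122 of 6863 genes compared had a higher one. With arrays scaled by spiked controls the 3 h difference was 0.13 and the 24 h difference -1.89. Tgm1 changed in opposite directions from 3 h to 24 h, with a 24 h minus 3 h difference of 0.23 in the mutant and -0.16 in WT. Both values are small, and the WT one had the other sign, 0.14, with arrays scaled by spiked controls. With 1 array per group neither difference was tested.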

How the results depend on the processing

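The counts of genes past 2-fold were recomputed under 9 alternatives in 8 comparisons (144 counts), and 139 stayed within 1.5 times the reported count. This share overstates how firm the counts are. Each gene here has 1 probe, so averaging over probes could change none of them. All reported counts of higher genes were 0 and stayed 0. With the arrays scaled by spiked controls, 1 gene instead of 2 was at least 2-fold lower in WT at 24 h against no UVB. At a threshold of 1.5-fold, 1 gene instead of 0 was lower in the mutant than in WT at 3 h, 2 instead of 1 were lower in WT at 24 h than at 3 h, and 1 instead of 0 was lower in the mutant at 3 h than in WT without UVB. With only genes above background on both arrays, 2 instead of 4 were lower in the mutant at 24 h than in WT without UVB. Smaller shifts lay inside the 1.5-times margin. For the mutant against WT at 24 h, the reported count of 3 lower genes fell to 2 without background correction. It also fell to 2 when genes with a dim spot on either array were dropped. Scaling by spiked controls and the 1.5-fold threshold each raised it to 4. The alternatives for the mutant against WT without UVB were chosen after seeing the data. Of 190 single-gene differences under the 5 alternatives that change values, 188 kept their sign, the exceptions being Tgm1 between WT at 24 h and 3 h (0.14, spiked controls) and Lor between the mutant at 3 h and WT without UVB (0.03, common median), and 71 moved by more than 0.13. Of 65 recomputed differences that were at least 2-fold as reported, 62 remained so, the exceptions being Lor in WT at 24 h (-0.95, spiked controls) and, without background correction, Ivl in the mutant at 24 h against WT at 24 h (-0.76) and against WT without UVB (-0.91). The cause was not tested. Between mutant and WT at 24 h, 189 of 7104 genes were at least 2-fold lower as reported, 1054 when scaled by spiked controls, 404 in the authors' deposited table and 103 without background correction. Higher genes numbered 114, 15, 295 and 58 in the same order. No paired analysis was possible because each group holds 1 array. Signal over background limits what can be said of Hrnr, Tgm3 and Ivl, and of Flg2 in the mutant at 24 h.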

Other observations

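The places of these genes on chromosome 3 in the GRCm38.p6 gene table were set beside the levels of their neighbours, a description added after the data were seen. Flg2, Flg and Hrnr follow each other among the genes measured. On one side Crnn was above background on 1 array only and Lce1m, a late cornified envelope gene, had 7.39 on the mutant array and 9.94 on the WT array at 24 h, with 12.15 without UVB. On the other side Rptn had 8.72 on the mutant array and 9.15 on the WT array at 24 h, with 7.69 without UVB, and S100a11 had 11.25 and 11.19, with 10.85 without UVB. Genes low and high at 24 h were therefore neighbours. Ivl lies between Sprr4, at 8.54 on the mutant and 9.33 on the WT array at 24 h with 8.58 without UVB, and Lce6a, at 6.62 on the mutant array and 7.57 on the WT array at 24 h with 8.99 without UVB. Lor lies next to Prr9, which had 8.39 on the mutant array and 6.80 on the WT array at 24 h, with 5.93 without UVB, both WT values below background.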
